A study of Arabidopsis thaliana with 29 samples.

Results

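Leaves of Arabidopsis thaliana that over-expressed GDU1 constitutively were set against leaves in which GDU1 had been switched on for 25 h. For each gene the log2 fold change of gdu1-1D over Col was reduced by the log2 fold change of Dex-GDU1 over 4c-S7 at 25 h, so a positive difference means a more positive change in the lasting over-expressor. Genes were joined by their entry in the deposited tables and kept where the authors' test had been made in both. That left 17331 of 32650 entries, after 4 entries listed at 0 in a group were set aside. The entries were chosen only by whether they had been tested, not by any measured change. Most entries are single genes, and 1186 of those tested join several neighbouring genes.

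The series holds 29 RNA-sequencing libraries in 12 groups, and 12 libraries of 4 groups enter this comparison. The gdu1-1D group (3 libraries) is a constitutive GDU1 over-expressor in the Columbia background, an untreated dominant mutant, known from earlier work as an activation-tagged line. Its control is untreated wild type Col (2 libraries). Dex-GDU1 (3 libraries) carries GDU1 under the dexamethasone-inducible 6Op-LHGRn system, and its control 4c-S7 (4 libraries) is the parental line of that system. Both were sprayed with 100 µM dexamethasone and 300 ppm Silwet L-77, a wetting agent, 5 h after dawn, kept under a humidity dome for 7 h and sampled 25 h after the spray. All plants grew on soil at 22 °C with 16 h of light and 8 h of darkness, for 23 days according to the growth protocol. The sample records also list 4 weeks of growth. Each library came from all leaves of 4 to 6 pooled plants, so plants were not measured singly, and each over-expressor is 1 line. The comparisons share no library. They differ in the duration of GDU1 over-expression and also in line, in spray and in the level that GDU1 reached, and these cannot be told apart. No unsprayed 4c-S7 or Dex-GDU1 leaves were analysed here.

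GDU1 (GLUTAMINE DUMPER 1) is a small plant-specific protein of the plasma membrane with a single membrane-spanning stretch. Plants that over-express it are known to leak amino acids, to lose glutamine in the droplets at their leaf margins, and to tolerate amino acids supplied in excess. The ubiquitin ligase LOG2 binds GDU1 and is needed for these traits. UMAMIT proteins are amino acid exporters of the plasma membrane, whereas AAP, LHT and ProT proteins take amino acids up. Stunting has been described in constitutive GDU over-expressors.

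The tables give 1 FPKM (fragments scaled to transcript length and to mapped fragments) per group, so no value of a single library and no spread between libraries can be shown. The reads per library are not given in the sources used here, and depth is therefore unknown. GDU1 itself, on chromosome 4 at 15361091 to 15361850 (TAIR10), had 294 FPKM in gdu1-1D and 5.19 FPKM in Col leaves, against 3362 FPKM in Dex-GDU1 and 6.52 FPKM in 4c-S7 leaves at 25 h. Both over-expressors stood far above their controls, and the level in the induced line was the higher one by an order of magnitude. The GDU1 changes were 56.7-fold (log2 5.82 ± 1.44, SE) and 515-fold (log2 9.01 ± 2.22). Their difference did not pass, at -3.18 ± 2.65 (SE), adjusted p of 0.500, with a standard error that is an upper bound, and it did pass when standard errors were taken from the authors' test statistic (adjusted p of 5.22e-20). Leaf identity was checked with markers. LHCB1.1, a chlorophyll-binding protein of the antenna, had 5860.3 FPKM in gdu1-1D and 7052 FPKM in Col leaves, against 6383 FPKM in Dex-GDU1 and 7484 FPKM in 4c-S7 leaves at 25 h. The leaf markers RBCS1A and RCA were listed at 0 in at least 3 of the 4 groups, with the test marked as not made because of too much data. All markers of seed (CRA1, OLEO1 and AT2S3) and most of flower (AP1, AP3 and PI) and root (CASP1, MYB36 and WER) were at or below 0.319 FPKM in all 4 groups.

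Among the entries tested in both, the authors' q (their adjusted p) was below 0.05 for 3999 higher (23.1%) and 3750 lower (21.6%) in gdu1-1D than in Col, 44.7% in all. For Dex-GDU1 over 4c-S7 at 25 h the counts were 4241 higher (24.5%) and 3781 lower (21.8%), 46.3% in all. At least 2-fold changes were 1164 higher and 147 lower in gdu1-1D, against 729 higher and 144 lower at 25 h. The called genes overlapped. Of the genes higher in gdu1-1D 67.7%, and of those higher at 25 h 63.8%, were the same 2707 genes. Lower in both were 2271 genes, 60.6% of the gdu1-1D list and 60.1% of the 25 h list. Across genes the log2 fold changes had a Pearson r of 0.672 and a Spearman rho of 0.641, given as a description since genes are not independent replicates.

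The difference between both changes passed (Benjamini-Hochberg adjusted p below 0.05 over all entries, two-sided) for 2018 entries, 11.6% of those tested. It was more positive in gdu1-1D for 875 (5.05%) and more negative for 1143 (6.6%). The standard error of each fold change was recomputed from the authors' p-value, which Cuffdiff had fitted over all genes; with 1 value per group no exact test over libraries could be made. Their smallest p is 5e-05, so for strongly changed genes this standard error is an upper bound given the authors' p, and few of them could pass: of 2573 entries at the smallest p and in the same direction in both comparisons, 85 passed. With standard errors taken from the authors' test statistic 480 entries passed, 343 more positive and 137 more negative in gdu1-1D, so the balance of directions turned. It also turned among differences of at least 1 on the log2 scale (285 and 178). With standard errors 1.5 times larger or a t distribution with 8 degrees of freedom none (0) did, with 1649 and 3126 entries at an unadjusted p below 0.05.

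Entries were sorted by both tests. Lasting genes, 828 (4.78%), were called in gdu1-1D and not at 25 h, with a difference that passed. Genes of the 25 h class, 614 (3.54%), were the reverse. Opposite genes, 363 (2.09%), were called in both with opposite signs, and shared genes, 4978 (28.7%), were called in both with the same sign. Every gene called with opposite signs (134 and 229 by direction) also passed the difference test. Calls and difference rest on the same p-values, and changes of opposite sign add up in the difference. Passing therefore adds little to the calls of the opposite class. With standard errors from the test statistic the classes held 58 lasting, 39 25 h and 110 opposite genes.

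**Figure D1:**
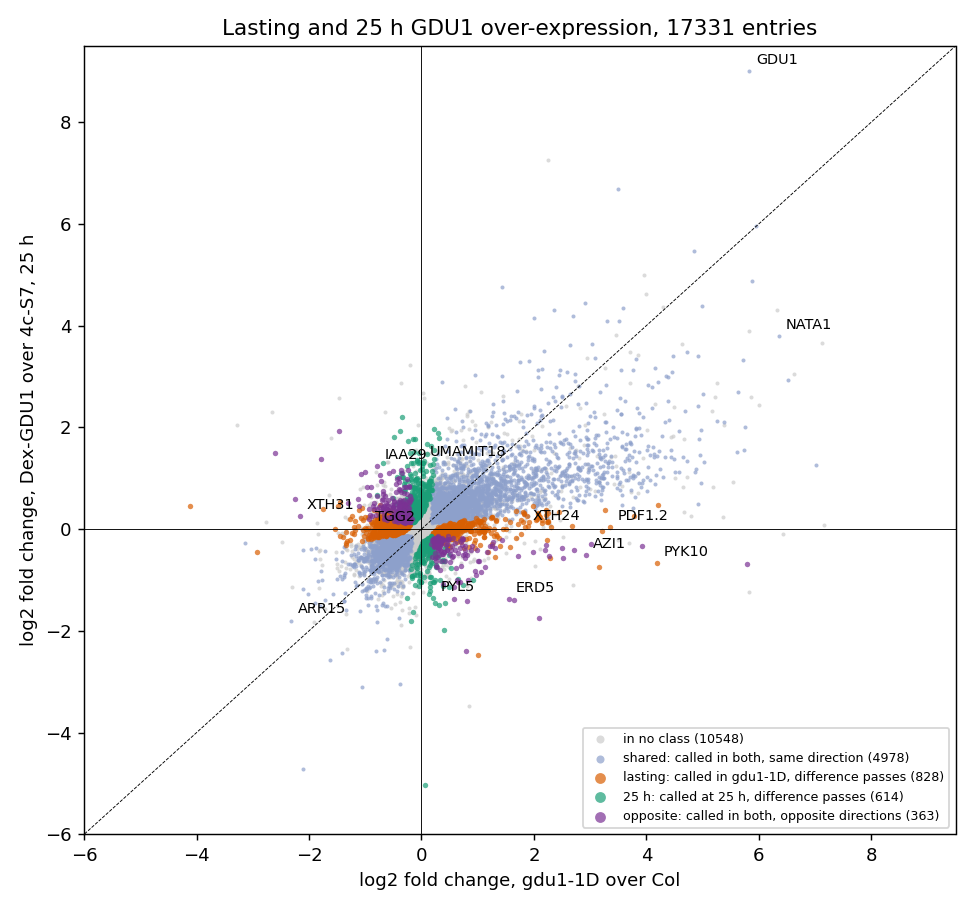
Log2 fold change of gdu1-1D over Col (x axis) against that of Dex-GDU1 over 4c-S7 at 25 h (y axis), 1 point per tested entry (17331), coloured by class, with the line of equal change dashed. Most shared genes that were higher lie below the dashed line (1996 of 2707), and the 828 lasting genes lie along the x axis.

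The lasting class held 369 genes higher (2.13%) and 459 lower (2.65%) in gdu1-1D. Leading genes, here and in the classes below, were ranked among single genes with a symbol and at least 5 FPKM in a group. Outside this set larger absolute differences occurred, up to 4.86 among lasting genes higher and 4.58 among those lower in gdu1-1D. So ranked, the higher lasting members were led by defensins, a metacaspase and lectins. The lower ones were led by genes that mostly stood at a few FPKM. PDF1.2, a plant defensin and marker of jasmonate and ethylene signalling, had 111 FPKM in gdu1-1D and 10.8 FPKM in Col leaves, against 12.03 FPKM in Dex-GDU1 and 11.7 FPKM in 4c-S7 leaves at 25 h. The gdu1-1D value stood apart from the 3 other groups, which were alike, and the difference was 3.31 ± 0.84 (SE), adjusted p of 0.00243. Its close relative PDF1.2b had 12.4 FPKM in gdu1-1D and 1.39 FPKM in Col leaves, against 1.39 FPKM in Dex-GDU1 and 2.33 FPKM in 4c-S7 leaves at 25 h, with a difference of 3.91 ± 1.1001 (SE), adjusted p of 0.00784. The defensin genes are near-identical copies, so reads may have been split between them. XTH24, a xyloglucan endotransglucosylase that remodels the cell wall, had 163 FPKM in gdu1-1D and 45.4 FPKM in Col leaves, against 113 FPKM in Dex-GDU1 and 110.5 FPKM in 4c-S7 leaves at 25 h. Here Col was the group that stood apart, well below the others, with a difference of 1.80 ± 0.46 (SE), adjusted p of 0.00251. The metacaspase MC2 had 5.42 FPKM in gdu1-1D and 0.843 FPKM in Col leaves, against 3.18 FPKM in Dex-GDU1 and 3.07 FPKM in 4c-S7 leaves at 25 h, again with the lowest level in Col (difference 2.63 ± 0.67 (SE), adjusted p of 0.00268). RING1, a ubiquitin ligase linked to programmed cell death, had 131 FPKM in gdu1-1D and 38.3 FPKM in Col leaves, against 64.1 FPKM in Dex-GDU1 and 56.9 FPKM in 4c-S7 leaves at 25 h (difference 1.60 ± 0.44 (SE), adjusted p of 0.00670).

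Other lasting genes that were higher in gdu1-1D were the jacalin-type lectins JAL34 and PBP1, the receptor-like kinase CRK24, the secreted alpha-amylase AMY1, the phosphatase SAL2, the import subunit TIM17-1 and WRKY47. Their changes in gdu1-1D lay between 1.34 (WRKY47) and 2.15 (JAL34) on the log2 scale. At 25 h the same genes lay between -0.13 (WRKY47) and 0.34 (AMY1), none of them called.

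Among the lower members, the myrosinase TGG2, which splits glucosinolates, had 429 FPKM in gdu1-1D and 830.2 FPKM in Col leaves, against 695 FPKM in Dex-GDU1 and 686 FPKM in 4c-S7 leaves at 25 h. Dex-GDU1 and 4c-S7 leaves were alike and gdu1-1D was the lowest group, with a difference of -0.97 ± 0.24 (SE), adjusted p of 0.00222. HCAR, a reductase of chlorophyll b turnover, had 8.25 FPKM in gdu1-1D and 15.6 FPKM in Col leaves, against 11.6 FPKM in Dex-GDU1 and 11.8 FPKM in 4c-S7 leaves at 25 h (difference -0.89 ± 0.24 (SE), adjusted p of 0.00477). The phosphotransmitter AHP1, which relays the cytokinin signal, had 2.46 FPKM in gdu1-1D and 6.16 FPKM in Col leaves, against 3.601 FPKM in Dex-GDU1 and 4.23 FPKM in 4c-S7 leaves at 25 h (difference -1.09 ± 0.36 (SE), adjusted p of 0.0286). WRKY27 fell by 1.34 on the log2 scale in gdu1-1D and had a value of -0.06 at 25 h. 4CL3, a ligase that feeds flavonoid synthesis, NAKR3, PFA-DSP2, GDPD6, LTP6, NHL12, LSH4 and BNQ2 completed the leading 12, with differences between -1.49 (4CL3) and -0.92 (BNQ2). Of the 12 leading lower genes only TGG2 passed with standard errors from the test statistic, against 9 of the 12 leading higher genes.

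In the class changed at 25 h, 403 genes (2.33%) had the more positive value at 25 h and 211 (1.22%) the more negative one. The higher ones included the amino acid exporter UMAMIT18, which has been linked to silique amino acid delivery and had 26.1 FPKM in gdu1-1D and 25.7 FPKM in Col leaves, against 22.9 FPKM in Dex-GDU1 and 9.35 FPKM in 4c-S7 leaves at 25 h. The 4c-S7 level was the one that stood apart, and Dex-GDU1 was near the level of both unsprayed groups (difference -1.28 ± 0.33 (SE), adjusted p of 0.00314). DEAR3, a factor of the DREB family, had 10.7 FPKM in gdu1-1D and 9.13 FPKM in Col leaves, against 24.8 FPKM in Dex-GDU1 and 9.58 FPKM in 4c-S7 leaves at 25 h, so that Dex-GDU1 was the group that stood apart (difference -1.14 ± 0.36 (SE), adjusted p of 0.0203). ENODL2, an early nodulin-like protein, had 191 FPKM in gdu1-1D and 211 FPKM in Col leaves, against 299 FPKM in Dex-GDU1 and 169 FPKM in 4c-S7 leaves at 25 h (difference -0.98 ± 0.22 (SE), adjusted p of 0.000432). HVA22D, an abscisic acid-responsive protein of the endoplasmic reticulum, had 25.7 FPKM in gdu1-1D and 22.3 FPKM in Col leaves, against 36.8 FPKM in Dex-GDU1 and 15.2 FPKM in 4c-S7 leaves at 25 h (difference -1.08 ± 0.33 (SE), adjusted p of 0.0167). The other leading genes were the heat shock factor HSFC1, the squalene synthase gene SQS2, the Myb factors ASG4 and CPL3, the alcohol dehydrogenase ADH1, BBX30, TBL26 and the starch synthesis subunit APL4, with differences between -1.74 (HSFC1) and -0.94 (APL4).

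Genes lower at 25 h included the abscisic acid receptor PYL5, which had 5.86 FPKM in gdu1-1D and 5.06 FPKM in Col leaves, against 5.08 FPKM in Dex-GDU1 and 13.0 FPKM in 4c-S7 leaves at 25 h. The 4c-S7 level exceeded all 3 other groups more than 2-fold (difference 1.57 ± 0.36 (SE), adjusted p of 0.000646). SAUR15, an auxin-induced growth gene, had 24.2 FPKM in gdu1-1D and 25.0 FPKM in Col leaves, against 8.61 FPKM in Dex-GDU1 and 18.8 FPKM in 4c-S7 leaves at 25 h, and Dex-GDU1 was the lowest group (difference 1.08 ± 0.30 (SE), adjusted p of 0.00686). FLA9, a fasciclin-like cell wall protein, had 62.8 FPKM in gdu1-1D and 63.3 FPKM in Col leaves, against 37.0 FPKM in Dex-GDU1 and 75.9 FPKM in 4c-S7 leaves at 25 h (difference 1.02 ± 0.27 (SE), adjusted p of 0.00358). DML1, the DNA demethylase also called ROS1, had 17.7 FPKM in gdu1-1D and 18.24 FPKM in Col leaves, against 8.61 FPKM in Dex-GDU1 and 17.42 FPKM in 4c-S7 leaves at 25 h (difference 0.98 ± 0.27 (SE), adjusted p of 0.00794). The auxin transporter ABCB21, AGF2, ULT1, BZIP61, the wall enzymes XTH16, XTH4 and CSLA03 and the ubiquitin ligase BRG3 had differences between 0.80 (BRG3) and 1.62 (ABCB21).

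Opposite changes were found for 134 genes (0.773%) higher in gdu1-1D and lower at 25 h, and for 229 (1.32%) the other way round. ERD5 is proline dehydrogenase, the mitochondrial enzyme that starts proline breakdown, and it had 17.1 FPKM in gdu1-1D and 5.83 FPKM in Col leaves, against 4.62 FPKM in Dex-GDU1 and 12.05 FPKM in 4c-S7 leaves at 25 h. It rose 2.93-fold in gdu1-1D (q = 0.000209) and fell by 1.38 (log2) in Dex-GDU1 leaves (q = 0.000190), a difference of 2.94 ± 0.51 (SE), adjusted p of 6.77e-06. AZI1 and EARLI1, lipid transfer-like proteins of systemic immunity, showed the same pattern of signs on very different control levels. AZI1 had 5.08 FPKM in gdu1-1D and 0.672 FPKM in Col leaves, against 21.6 FPKM in Dex-GDU1 and 30.9 FPKM in 4c-S7 leaves at 25 h (difference 3.44 ± 0.73 (SE), adjusted p of 0.000197), so the Col level was far below that of 4c-S7 in tables that were normalised separately. EARLI1 had 6.08 FPKM in gdu1-1D and 1.08 FPKM in Col leaves, against 40.8 FPKM in Dex-GDU1 and 52.8 FPKM in 4c-S7 leaves at 25 h (difference 2.86 ± 0.62 (SE), adjusted p of 0.000276). The flowering signal FT had 4.14 FPKM in gdu1-1D and 0.894 FPKM in Col leaves, against 6.69 FPKM in Dex-GDU1 and 8.32 FPKM in 4c-S7 leaves at 25 h (difference 2.53 ± 0.56 (SE), adjusted p of 0.000356).

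AGP7, an arabinogalactan protein, had 12.6 FPKM in gdu1-1D and 6.07 FPKM in Col leaves, against 5.37 FPKM in Dex-GDU1 and 9.66 FPKM in 4c-S7 leaves at 25 h, with controls that lay closer together (difference 1.90 ± 0.33 (SE), adjusted p of 6.77e-06). The trehalase TRE1 had 3.12 FPKM in gdu1-1D and 1.59 FPKM in Col leaves, against 4.93 FPKM in Dex-GDU1 and 9.21 FPKM in 4c-S7 leaves at 25 h (difference 1.87 ± 0.33 (SE), adjusted p of 6.77e-06). SMT3, a sterol methyltransferase, had 23.7 FPKM in gdu1-1D and 14.7 FPKM in Col leaves, against 9.19 FPKM in Dex-GDU1 and 19.0 FPKM in 4c-S7 leaves at 25 h (difference 1.74 ± 0.31 (SE), adjusted p of 6.91e-06). OPT1, an oligopeptide transporter, had 5.28 FPKM in gdu1-1D and 3.56 FPKM in Col leaves, against 2.37 FPKM in Dex-GDU1 and 6.14 FPKM in 4c-S7 leaves at 25 h (difference 1.94 ± 0.38 (SE), adjusted p of 4.93e-05), and the wall enzyme XTR6 and the thioredoxin ACHT5 had differences of 3.298 and 1.87.

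In the reverse direction, the glycine-rich protein gene GRP9 had 0.995 FPKM in gdu1-1D and 6.08 FPKM in Col leaves, against 2.88 FPKM in Dex-GDU1 and 1.02 FPKM in 4c-S7 leaves at 25 h, the largest difference of the named genes of this direction at -4.11 ± 0.74 (SE), adjusted p of 8.07e-06. XTH31, a xyloglucan enzyme of the cell wall, had 24.2 FPKM in gdu1-1D and 109 FPKM in Col leaves, against 67.7 FPKM in Dex-GDU1 and 56.4 FPKM in 4c-S7 leaves at 25 h (difference -2.43 ± 0.54 (SE), adjusted p of 0.000380). IAA29, an auxin-responsive repressor, had 4.63 FPKM in gdu1-1D and 7.97 FPKM in Col leaves, against 3.15 FPKM in Dex-GDU1 and 1.33 FPKM in 4c-S7 leaves at 25 h (difference -2.03 ± 0.36 (SE), adjusted p of 6.91e-06). UMAMIT17, another amino acid exporter, had 20.5 FPKM in gdu1-1D and 26.0 FPKM in Col leaves, against 20.4 FPKM in Dex-GDU1 and 9.49 FPKM in 4c-S7 leaves at 25 h (difference -1.45 ± 0.29 (SE), adjusted p of 4.93e-05). GBSS1, the starch synthase of amylose, had 50.8 FPKM in gdu1-1D and 60.3 FPKM in Col leaves, against 56.7 FPKM in Dex-GDU1 and 25.5 FPKM in 4c-S7 leaves at 25 h (difference -1.40 ± 0.29 (SE), adjusted p of 0.000166). For UMAMIT17, GBSS1 and IAA29 the 4c-S7 level was the lowest of the 4. The proline transporter ProT3, the desaturase ADS1, BGLU47, the trichome repressor TRY and the expansin EXPA4 had differences between -1.72 (ProT3) and -1.40 (EXPA4).

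Over all entries, Col and 4c-S7 differed at least 2-fold for 5.00%, in separately normalised tables. The share was 20.1% in the opposite class with a positive difference, 10.5% in that with a negative difference, 14.9% among shared higher and 1.76% among shared lower genes, 11.1% among lasting genes higher in gdu1-1D and 2.18% among those lower. In the 25 h class it was 6.95% of genes higher and 7.11% of genes lower at 25 h. What part such differences between the controls have in the classes was not tested.

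**Figure D2:**
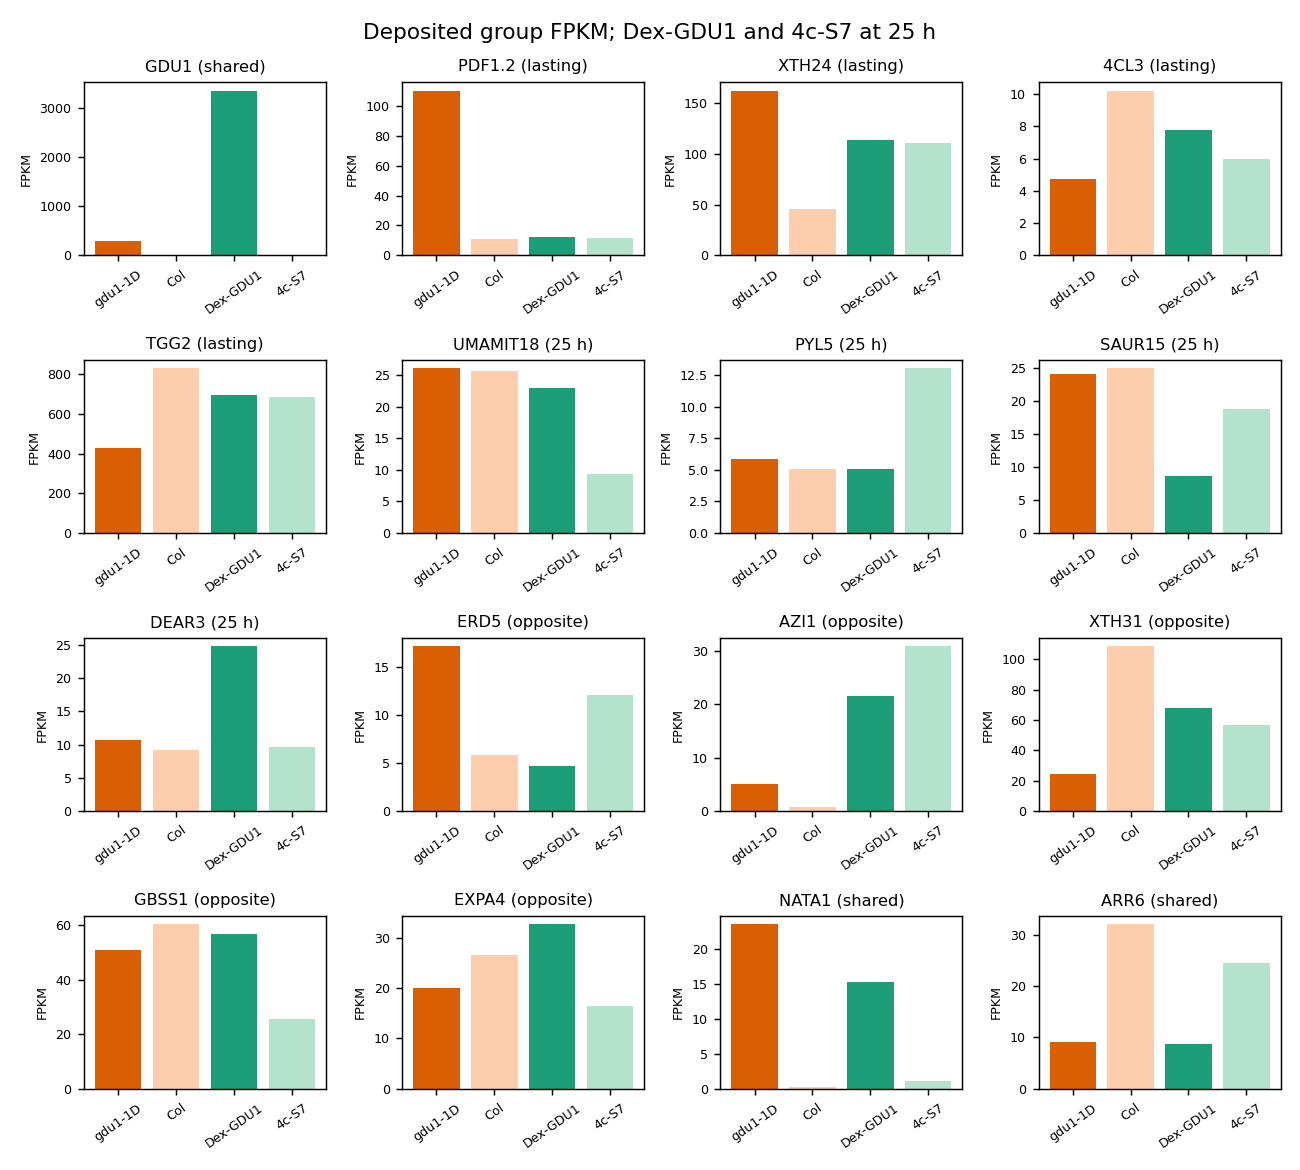
Deposited FPKM (y axes, linear from 0) of 16 named genes in gdu1-1D, Col, Dex-GDU1 and 4c-S7 leaves, Dex-GDU1 and 4c-S7 at 25 h, with the class of each gene in brackets; bars are single group values with no error. PDF1.2 stands out in gdu1-1D alone (111 FPKM), while for XTH24 and PYL5 it is 1 control that stands apart.

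By their medians, shared genes had somewhat larger changes in gdu1-1D than at 25 h. The difference passed for 184 of them (1.06% of all entries). The 2707 shared higher genes (15.6%) had a median log2 fold change of 0.71 in gdu1-1D and 0.55 at 25 h, and 156 of them had a difference that passed, 142 of which were larger in gdu1-1D. The 2271 shared lower genes (13.1%) had medians of -0.46 and -0.38. NATA1, an acetyltransferase of ornithine in jasmonate responses, had 23.5 FPKM in gdu1-1D and 0.287 FPKM in Col leaves. At 25 h it had 15.2 FPKM in Dex-GDU1 and 1.09 FPKM in 4c-S7 leaves. By the smaller of both changes, its shared rise came next after GDU1 among single named genes with at least 5 FPKM in a group. HAI2, a phosphatase of abscisic acid signalling, had 4.21 FPKM in gdu1-1D and 0.370 FPKM in Col leaves, against 5.25 FPKM in Dex-GDU1 and 0.307 FPKM in 4c-S7 leaves at 25 h. The mannan synthases CSLA01 and CSLA10, the phosphatase HAI1, the dioxygenase ARD3 and the late embryogenesis protein LEA4-5 also rose in both, by at least 3.10 on the log2 scale. Among shared lower genes, the cytokinin response regulators ARR15 and ARR6 had log2 fold changes of -2.32 and -1.80 in gdu1-1D, and of -1.80 and -1.51 at 25 h. MES7, PYL6, the germin-like GER3, CRF2, the peptide transporter PTR4 and SOFL2 followed. The difference passed for none of these 16, apart from GDU1 under the other standard error. Most of the 16 stood at the smallest p in both comparisons, where the test could hardly pass.

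The GDU and LOG2 family had 10 of 12 members tested in both, GDU2 and GDU6 being untested at 25 h, and no other GDU gene followed GDU1 in both comparisons. GDU3 had 7.63 FPKM in gdu1-1D and 6.91 FPKM in Col leaves, against 8.60 FPKM in Dex-GDU1 and 5.10 FPKM in 4c-S7 leaves at 25 h, called at 25 h only, and its difference missed the threshold (-0.61 ± 0.23 (SE), adjusted p of 0.0654). GDU7 had 0.659 FPKM in gdu1-1D and 3.24 FPKM in Col leaves, against 0.697 FPKM in Dex-GDU1 and 1.53 FPKM in 4c-S7 leaves at 25 h, called lower in gdu1-1D (q = 0.0471), with a difference of -1.16 ± 1.19 (SE), adjusted p of 0.610. LOG2, the partner ligase, had 24.4 FPKM in gdu1-1D and 20.7 FPKM in Col leaves, against 27.8 FPKM in Dex-GDU1 and 19.1 FPKM in 4c-S7 leaves at 25 h and rose in both (log2 0.23 ± 0.08 and 0.55 ± 0.13). GDU4, GDU5, LUL1, LUL2, LUL3 and LUL4 had differences between -0.69 (GDU5) and 0.33 (LUL2), none of which passed. Of the 6 other genes tested within 20 kb of GDU1, MGD1, a galactolipid synthase gene 13 kb away, had a difference that passed (-0.35, adjusted p of 0.0373), with 49.4 FPKM in gdu1-1D and 66.9 FPKM in Col leaves, against 56.1 FPKM in Dex-GDU1 and 59.5 FPKM in 4c-S7 leaves. WIN2, the nearest neighbour, changed by 0.32 in gdu1-1D and 0.24 at 25 h.

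Amino acid exporters moved at 25 h more than in gdu1-1D. Of 9 tested, 8 were called higher at 25 h and none lower, against 2 higher and 1 lower in gdu1-1D. Of all entries, 24.5% were called higher and 21.8% lower at 25 h, against 23.1% and 21.6% in gdu1-1D. Differences passed for 11.6% of all entries. The counts of each list below are to be read beside these shares. UMAMIT17, described above, was not in the exporter list. The median log2 fold change of the 9 exporters was 0.02 in gdu1-1D and 0.92 at 25 h, where the medians of all tested genes lay within 0.01 of 0. Differences passed for UMAMIT10, UMAMIT11, UMAMIT18 and UMAMIT28, all more negative in gdu1-1D, and for UMAMIT18 alone when standard errors came from the test statistic. UMAMIT28, an exporter of the seed endosperm, had 5.57 FPKM in gdu1-1D and 5.55 FPKM in Col leaves, against 7.92 FPKM in Dex-GDU1 and 4.198 FPKM in 4c-S7 leaves at 25 h (difference -0.91 ± 0.26 (SE), adjusted p of 0.00852). UMAMIT11 had 7.37 FPKM in gdu1-1D and 7.26 FPKM in Col leaves, against 11.7 FPKM in Dex-GDU1 and 7.59 FPKM in 4c-S7 leaves at 25 h (difference -0.61 ± 0.19 (SE), adjusted p of 0.0185). UMAMIT20 rose in both, with 27.0 FPKM in gdu1-1D and 17.5 FPKM in Col leaves, against 35.8 FPKM in Dex-GDU1 and 14.2 FPKM in 4c-S7 leaves at 25 h, and its difference did not pass (-0.71 ± 0.36 (SE), adjusted p of 0.205).

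Importers were mixed. Of 20 tested, 8 were higher and 1 lower in gdu1-1D, near the 44.7% of all entries called, against 12 higher and 1 lower at 25 h (46.3% of all entries called), and differences passed for 5 (11.6% of all entries). The lysine and histidine transporter LHT1, which also takes up glutamine, had 20.7 FPKM in gdu1-1D and 4.66 FPKM in Col leaves, against 13.6 FPKM in Dex-GDU1 and 9.85 FPKM in 4c-S7 leaves at 25 h, a rise of 4.44-fold in gdu1-1D and 1.38-fold at 25 h (difference 1.68 ± 0.54 (SE), adjusted p of 0.0239). The cationic amino acid transporter CAT1 had 2.41 FPKM in gdu1-1D and 0.184 FPKM in Col leaves, against 2.13 FPKM in Dex-GDU1 and 1.05 FPKM in 4c-S7 leaves at 25 h (difference 2.69 ± 0.95 (SE), adjusted p of 0.0424), a call that a pseudocount of 1 FPKM ended (adjusted p of 0.127). AAP6, an importer of the xylem, had 29.0 FPKM in gdu1-1D and 39.7 FPKM in Col leaves, against 23.4 FPKM in Dex-GDU1 and 21.0 FPKM in 4c-S7 leaves at 25 h and moved in opposite directions (difference -0.60 ± 0.13 (SE), adjusted p of 0.000175). PROT1 and PROT2, which carry proline, were called higher at 25 h only, with differences of -0.53 and -0.46. AAP1 and AAP4 rose in both, by 0.51 and 0.61 in gdu1-1D and by 1.04 and 1.25 at 25 h, without a difference that passed.

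Among 20 genes of nitrogen assimilation and amino acid synthesis, 8 were higher and 9 lower in gdu1-1D, against 9 higher and 5 lower at 25 h. GLN1;1, a cytosolic glutamine synthetase, had 114 FPKM in gdu1-1D and 32.0 FPKM in Col leaves, against 82.7 FPKM in Dex-GDU1 and 65.3 FPKM in 4c-S7 leaves at 25 h (difference 1.49 ± 0.46 (SE), adjusted p of 0.0171). ASN1, the dark-induced asparagine synthetase, had 15.04 FPKM in gdu1-1D and 3.75 FPKM in Col leaves, against 9.01 FPKM in Dex-GDU1 and 6.29 FPKM in 4c-S7 leaves at 25 h (difference 1.48 ± 0.51 (SE), adjusted p of 0.0370). Both rose in each comparison and rose more in gdu1-1D. The plastid glutamine synthetase GLN2 and a glutamate synthase went the other way. GLN2 had 1077 FPKM in gdu1-1D and 1643 FPKM in Col leaves, against 1327 FPKM in Dex-GDU1 and 1320.1 FPKM in 4c-S7 leaves at 25 h (difference -0.62 ± 0.17 (SE), adjusted p of 0.00615) and GLU1, a ferredoxin-dependent glutamate synthase, was lower in gdu1-1D (log2 -0.32) and at 0.04 at 25 h. The other glutamate synthases were not called lower: GLU2 rose in both (log2 0.37 and 0.40), and GLT1 had log2 values of -0.02 and 0.05, not called. The nitrite reductase NIR1 fell by 0.47 in gdu1-1D and rose by 0.22 at 25 h (difference -0.69 ± 0.13 (SE), adjusted p of 1.70e-05), and the asparagine synthetase ASN2 followed (difference -0.85 ± 0.18 (SE), adjusted p of 0.000132). P5CS1, the rate-limiting enzyme of proline synthesis, rose in both, with 327 FPKM in gdu1-1D and 58.1 FPKM in Col leaves, against 189 FPKM in Dex-GDU1 and 30.7 FPKM in 4c-S7 leaves at 25 h. Its difference was -0.13 ± 0.89 (SE), adjusted p of 0.972.

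Of 15 genes of amino acid breakdown 9 were higher in gdu1-1D and 8 higher and 1 lower at 25 h, the lower one being ERD5. PRODH2, the second proline dehydrogenase, did not share its pattern and had 5.62 FPKM in gdu1-1D and 3.51 FPKM in Col leaves, against 5.97 FPKM in Dex-GDU1 and 2.42 FPKM in 4c-S7 leaves at 25 h. The glutamate decarboxylase GAD1 had 3.94 FPKM in gdu1-1D and 2.08 FPKM in Col leaves, against 5.79 FPKM in Dex-GDU1 and 5.30 FPKM in 4c-S7 leaves at 25 h and was called in gdu1-1D only (difference 0.79 ± 0.24 (SE), adjusted p of 0.0167). GAD2, the abundant leaf form, was called at 25 h only (difference -0.34 ± 0.10 (SE), adjusted p of 0.0144). The promoter of ERD5 is shown because its transcript changed in opposite directions. It spans 250 bases before to 50 bases after the annotated start (RefSeq TAIR10.1, chr3:12451507-12451806, minus strand, written 5′ to 3′ along the gene). Capitals mark ACTCAT on either strand, the letters of a proline-responsive element, found once and held by 14.7% of the 27443 promoters of this length.
ERD5: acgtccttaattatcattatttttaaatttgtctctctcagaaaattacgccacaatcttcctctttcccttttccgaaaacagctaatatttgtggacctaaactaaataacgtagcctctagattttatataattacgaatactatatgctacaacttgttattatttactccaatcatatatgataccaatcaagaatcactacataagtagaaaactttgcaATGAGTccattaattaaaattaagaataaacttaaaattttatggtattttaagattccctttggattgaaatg

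Chaperones and folding enzymes of the endoplasmic reticulum were the group with the highest count of differences in 1 direction. Of 16 tested, 15 were higher in gdu1-1D and 13 at 25 h, none lower, with medians of 1.24 and 0.36. Differences passed for 8, all more positive in gdu1-1D, and for 12 with standard errors from the test statistic, beside 5.05% of all entries in this direction. BIP3, the stress-specific form of the luminal Hsp70, had 16.9 FPKM in gdu1-1D and 1.46 FPKM in Col leaves, against 4.05 FPKM in Dex-GDU1 and 2.38 FPKM in 4c-S7 leaves at 25 h, a rise of 11.5-fold in gdu1-1D and 1.71-fold at 25 h (difference 2.76 ± 0.89 (SE), adjusted p of 0.0243). SHD, the Hsp90 of this compartment, had 237 FPKM in gdu1-1D and 98.1 FPKM in Col leaves, against 132 FPKM in Dex-GDU1 and 113 FPKM in 4c-S7 leaves at 25 h (difference 1.05 ± 0.32 (SE), adjusted p of 0.0156). UTR1, which carries sugar nucleotides into it, had 21.5 FPKM in gdu1-1D and 6.71 FPKM in Col leaves, against 12.2 FPKM in Dex-GDU1 and 9.98 FPKM in 4c-S7 leaves at 25 h (difference 1.39 ± 0.42 (SE), adjusted p of 0.0154). BIP2, CNX1 and ERDJ3B had differences of 1.03, 0.86 and 0.97. The calreticulins CRT1a and CRT2 were called in gdu1-1D only, at 0.87 and 0.89, against 0.05 and 0.09 at 25 h.

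BZIP60, the transcription factor that is spliced in this stress response, was among the 8 members whose difference did not pass. It had 40.6 FPKM in gdu1-1D and 19.6 FPKM in Col leaves, against 50.8 FPKM in Dex-GDU1 and 30.0 FPKM in 4c-S7 leaves at 25 h, and its difference was 0.29 ± 0.32 (SE), adjusted p of 0.648. At 7 h after the spray, 11 of the 16 were called lower and 1 higher in Dex-GDU1, where 7.3% of all entries were lower and 8.84% higher. BZIP60 was the one that was higher (log2 0.32), and BIP3 fell by 1.02 (q = 0.000725).

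Promoters of this group were searched for the abscisic acid-responsive element (ABRE, ACGTGNC), the G-box (CACGTG), the W-box (TTGACN), the drought-responsive element (DRE, CCGAC) and 2 elements of the unfolded protein response (ERSE-II, and UPRE, TGACGTGG), on both strands. ABRE letters stood in 9 of 16 (56.2%, against 10.3% of all promoters), G-box letters in 9 (against 7.68%) and UPRE letters in 5 (31.2%, against 1.51%). Such shares were not particular to folding genes. Of 16 clock gene promoters, 12 held ABRE letters (75%), 10 G-box letters (62.5%) and 6 UPRE letters (37.5%). These motifs overlap in sequence, since ABRE, G-box and UPRE share the core ACGTG. UPRE or ERSE-II letters stood in 4 of the 8 promoters of genes whose difference passed and in 1 of the other 8. The promoters of BIP3 (chr1:2931801-2932100, minus strand) and SHD (chr4:12556009-12556308, minus strand) are shown, from RefSeq TAIR10.1 over the same window, as the gene with the largest difference and as one that holds UPRE letters; capitals mark all searched motifs, with 3 ABRE, 1 G-box and 1 W-box in BIP3 and 2 ABRE, 1 G-box, 1 UPRE, 1 W-box and 1 DRE in SHD.
BIP3: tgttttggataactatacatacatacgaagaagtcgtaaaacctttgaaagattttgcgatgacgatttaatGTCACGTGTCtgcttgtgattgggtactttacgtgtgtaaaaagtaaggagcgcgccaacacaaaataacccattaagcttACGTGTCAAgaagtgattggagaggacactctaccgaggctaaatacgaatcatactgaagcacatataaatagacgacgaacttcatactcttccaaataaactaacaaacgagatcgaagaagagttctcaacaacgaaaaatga
SHD: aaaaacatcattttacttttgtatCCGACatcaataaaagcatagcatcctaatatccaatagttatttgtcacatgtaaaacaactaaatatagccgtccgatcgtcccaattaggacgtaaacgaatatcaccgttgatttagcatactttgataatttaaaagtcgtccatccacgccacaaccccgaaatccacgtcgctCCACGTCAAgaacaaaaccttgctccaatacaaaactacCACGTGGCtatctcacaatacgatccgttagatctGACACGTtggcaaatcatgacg

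**Figure D3:**
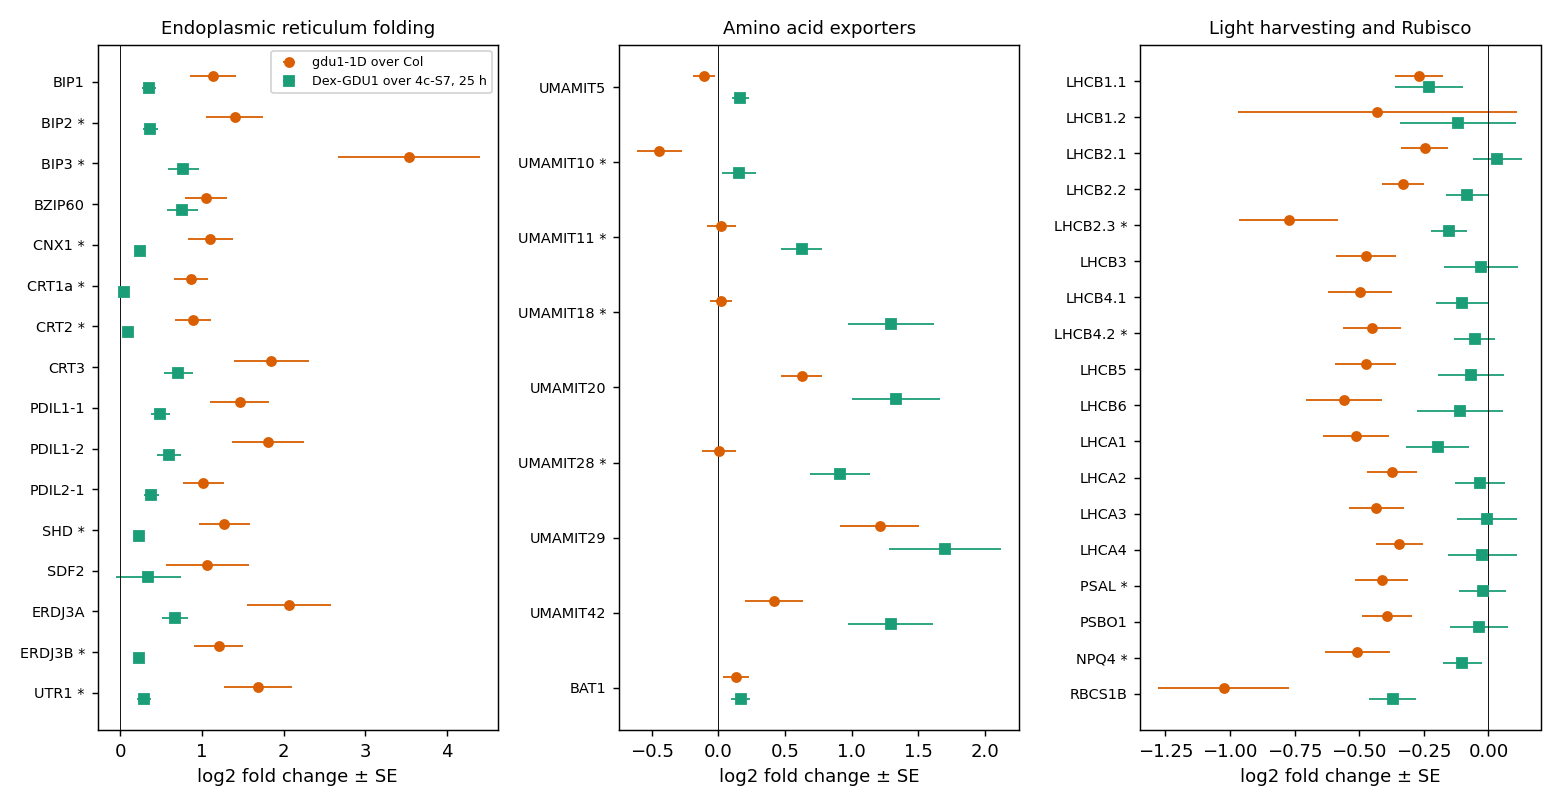
Log2 fold change ± SE (x axes) of gdu1-1D over Col (circles) and of Dex-GDU1 over 4c-S7 at 25 h (squares) for the tested members of 3 lists; an asterisk marks a difference that passed. All 16 folding genes lie further right in gdu1-1D, all 9 exporters lie further right at 25 h, and all 18 light-harvesting and Rubisco genes lie further left in gdu1-1D.

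Salicylic acid and pipecolic acid genes rose in both comparisons. Of 31 tested, 29 were higher in gdu1-1D and 28 at 25 h, none lower, with medians of 2.43 and 1.11, and 29 of the 31 differences were positive. Passing differences numbered 4, and 16 with standard errors from the test statistic; 26 of the 31 were at the smallest p in both. PR1, the classical salicylic acid marker, had 508 FPKM in gdu1-1D and 10.4 FPKM in Col leaves, against 184 FPKM in Dex-GDU1 and 64.5 FPKM in 4c-S7 leaves at 25 h, which is 48.8-fold in gdu1-1D and 2.86-fold at 25 h (difference 4.096 ± 1.43 (SE), adjusted p of 0.0408). UGT76B1, which glucosylates isoleucic acid and salicylic acid, had 17.9 FPKM in gdu1-1D and 0.138 FPKM in Col leaves, against 8.71 FPKM in Dex-GDU1 and 3.62 FPKM in 4c-S7 leaves at 25 h (difference 5.75 ± 1.94 (SE), adjusted p of 0.0329). Its Col level is near 0, and a pseudocount of 1 FPKM ended the call (adjusted p of 0.0660). AED1, an apoplastic protease, had 192 FPKM in gdu1-1D and 24.3 FPKM in Col leaves, against 66.7 FPKM in Dex-GDU1 and 41.3 FPKM in 4c-S7 leaves at 25 h (difference 2.29 ± 0.75 (SE), adjusted p of 0.0281). ICS1, the synthase that supplies salicylic acid, rose less, with 31.6 FPKM in gdu1-1D and 11.1 FPKM in Col leaves, against 17.5 FPKM in Dex-GDU1 and 11.9 FPKM in 4c-S7 leaves at 25 h. FMO1, in an entry joined with a neighbour, was the one called in gdu1-1D only. At 7 h 10 of the 31 were called lower and 6 higher, and PR1 fell by 2.13.

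Pattern-triggered immunity and camalexin genes had 18 higher and 1 lower of 24 in gdu1-1D, against 19 higher and 2 lower at 25 h, and medians of 0.95 and 0.80. Differences passed for 3 of the 24, near the 11.6% of all entries. Of the 24 genes, 15 were at the smallest p in both, where few differences could pass. NHL10 and FRK1, flagellin-responsive genes, had differences of 3.74 ± 1.23 (SE), adjusted p of 0.0279 and 3.10 ± 1.03 (SE), adjusted p of 0.0293. Both calls ended with a pseudocount of 1 FPKM (adjusted p of 0.0674 and 0.111). NHL10 had 10.95 FPKM in gdu1-1D and 0.376 FPKM in Col, against 12.96 FPKM in Dex-GDU1 and 5.93 FPKM in 4c-S7 leaves. FRK1 had 3.44 FPKM in gdu1-1D and 0.207 FPKM in Col, against 4.17 FPKM in Dex-GDU1 and 2.14 FPKM in 4c-S7 leaves. For both genes Dex-GDU1 was the highest group, and Col lay far below 4c-S7. WRKY29 had 2.18 FPKM in gdu1-1D and 1.65 FPKM in Col leaves, against 0.732 FPKM in Dex-GDU1 and 2.91 FPKM in 4c-S7 leaves at 25 h, and fell at 25 h alone (difference 2.39 ± 0.54 (SE), adjusted p of 0.000467). WRKY33, WRKY53 and PAD3 rose in both.

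Jasmonate genes rose in both as well, 25 of 32 in gdu1-1D and 27 at 25 h, with medians of 1.52 and 1.26. Differences passed for 4 of the 32, near the 11.6% of all entries, and PDF1.2 was 1 of them. Of the 32 genes, 21 were at the smallest p in both, where few differences could pass. VSP1, a storage protein and marker of the wound branch, had 39.2 FPKM in gdu1-1D and 1.32 FPKM in Col leaves, against 19.8 FPKM in Dex-GDU1 and 8.67 FPKM in 4c-S7 leaves at 25 h (difference 3.70 ± 1.24 (SE), adjusted p of 0.0316). ORA59, the ethylene response factor that acts on PDF1.2, had 2.52 FPKM in gdu1-1D and 1.43 FPKM in Col leaves, against 0.918 FPKM in Dex-GDU1 and 1.83 FPKM in 4c-S7 leaves at 25 h and changed in opposite directions (difference 1.82 ± 0.35 (SE), adjusted p of 3.01e-05). LOX3, a lipoxygenase of jasmonate synthesis, had the larger rise at 25 h (difference -0.94 ± 0.34 (SE), adjusted p of 0.0476). Ethylene genes showed 13 higher and 1 lower of 17 in both comparisons, and no difference passed. Of these 17, 9 were at the smallest p in both, where the test could hardly pass.

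Abscisic acid and drought genes rose in both. Of 24 tested, 22 were higher in gdu1-1D and 23 at 25 h, with medians of 1.27 and 1.57, and no difference passed. With 22 of 24 at the smallest p in both, the test could hardly pass here. Of the 24 differences 4 were positive, and their median was -0.43. RD29A, a dehydration-induced protein, had 23.63 FPKM in gdu1-1D and 5.61 FPKM in Col leaves, against 70.1 FPKM in Dex-GDU1 and 8.01 FPKM in 4c-S7 leaves at 25 h (difference -1.06 ± 0.93 (SE), adjusted p of 0.532). RD29B had 2.50 FPKM in gdu1-1D and 0.0873 FPKM in Col leaves, against 3.18 FPKM in Dex-GDU1 and 0.0716 FPKM in 4c-S7 leaves at 25 h (difference -0.63 ± 1.80 (SE), adjusted p of 0.903). NCED3, the rate-limiting enzyme of abscisic acid synthesis, had 6.46 FPKM in gdu1-1D and 1.66 FPKM in Col leaves, against 8.11 FPKM in Dex-GDU1 and 3.17 FPKM in 4c-S7 leaves at 25 h. The RD29B promoter (chr5:21236771-21237070, plus strand, RefSeq TAIR10.1, the same window) is shown as one from this group, and its capitals mark 3 ABRE and 1 DRE. ABRE letters stood in 11 of 24 promoters of the list (45.8%).
RD29B: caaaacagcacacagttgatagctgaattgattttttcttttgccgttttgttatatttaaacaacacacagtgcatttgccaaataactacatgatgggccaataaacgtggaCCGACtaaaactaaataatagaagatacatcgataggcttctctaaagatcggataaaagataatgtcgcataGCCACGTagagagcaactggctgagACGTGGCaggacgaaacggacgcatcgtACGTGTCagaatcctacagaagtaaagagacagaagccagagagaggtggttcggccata

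Abscisic acid receptors fell at 25 h more than in gdu1-1D. Of 9 tested, 7 were lower and 1 higher at 25 h, against 4 lower in gdu1-1D, with medians of -0.61 and -0.10, and differences passed for 3. PYL4 had 29.4 FPKM in gdu1-1D and 44.9 FPKM in Col leaves, against 14.8 FPKM in Dex-GDU1 and 66.3 FPKM in 4c-S7 leaves at 25 h (difference 1.55 ± 0.55 (SE), adjusted p of 0.0454). PYR1 had 64.2 FPKM in gdu1-1D and 68.8 FPKM in Col leaves, against 49.5 FPKM in Dex-GDU1 and 82.6 FPKM in 4c-S7 leaves at 25 h (difference 0.64 ± 0.20 (SE), adjusted p of 0.0217). PYL6, at low levels, had 0.918 FPKM in gdu1-1D and 1.91 FPKM in Col leaves, against 0.648 FPKM in Dex-GDU1 and 5.56 FPKM in 4c-S7 leaves at 25 h, and its difference did not pass (2.04 ± 0.82 (SE), adjusted p of 0.0815). At 7 h 4 of 8 were called lower and none higher, with PYL4 at -0.61.

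Cold-response genes rose in 7 of 10 in gdu1-1D and in 9 at 25 h, with medians of 1.55 and 1.77 and no difference that passed. Of these 10, 6 were at the smallest p in both, where the test could hardly pass. The chloroplast protein COR15A had 171 FPKM in gdu1-1D and 52.8 FPKM in Col leaves. At 25 h it had 472 FPKM in Dex-GDU1 and 71.9 FPKM in 4c-S7 leaves. Touch-responsive genes were all called higher in both, 10 of 10, with medians of 1.77 and 0.93, and likewise at 7 h. No difference of these touch genes passed, but 8 of the 10 were at the smallest p in both, where the test could hardly pass. Cytokinin response genes fell in both, 14 of 18 in gdu1-1D and 15 at 25 h, with medians of -0.71 and -0.77. Differences passed for 2 of the 18, near the 11.6% of all entries. Of the 18 genes, 10 were at the smallest p in both, where few differences could pass. Passing differences were those of the oxidase CKX1 (1.92) and of CRF6, which rose in gdu1-1D alone with 6.27 FPKM in gdu1-1D and 4.199 FPKM in Col leaves, against 7.35 FPKM in Dex-GDU1 and 8.38 FPKM in 4c-S7 leaves at 25 h (difference 0.77 ± 0.17 (SE), adjusted p of 0.000323). Of 14 iron genes 9 were higher and 3 lower in each comparison, and differences passed for 2, near the 11.6% of all entries. At the smallest p in both stood 8 of the 14, where few differences could pass. BHLH38, a factor of iron uptake, had 60.4 FPKM in gdu1-1D and 9.12 FPKM in Col leaves, against 47.2 FPKM in Dex-GDU1 and 5.73 FPKM in 4c-S7 leaves at 25 h, whereas the nicotianamine synthase NAS3 changed in opposite directions (difference -1.27 ± 0.22 (SE), adjusted p of 6.77e-06) and NAS4 fell more in gdu1-1D (difference -0.76).

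Light-harvesting and Rubisco genes fell in gdu1-1D and hardly at 25 h. Of 18 tested, 17 were lower in gdu1-1D and 1 at 25 h, with medians of -0.44 and -0.08, and all 18 differences were negative. Differences passed for LHCB2.3, LHCB4.2, PSAL and NPQ4, and for none with standard errors from the test statistic. LHCB2.3 had 1471 FPKM in gdu1-1D and 2514 FPKM in Col leaves, against 1637 FPKM in Dex-GDU1 and 1818 FPKM in 4c-S7 leaves at 25 h (difference -0.62 ± 0.20 (SE), adjusted p of 0.0265). NPQ4, which encodes the photoprotective PsbS protein, had 1938 FPKM in gdu1-1D and 2755 FPKM in Col leaves, against 2299 FPKM in Dex-GDU1 and 2464 FPKM in 4c-S7 leaves at 25 h (difference -0.41 ± 0.15 (SE), adjusted p of 0.0488). RBCS1B, a Rubisco small subunit, fell in both, with 1581 FPKM in gdu1-1D and 3215 FPKM in Col leaves, against 2276 FPKM in Dex-GDU1 and 2943 FPKM in 4c-S7 leaves at 25 h. In these whole-leaf samples fewer mesophyll cells and less RNA per cell cannot be told apart. Cell division genes were lower for 10 of 14 in gdu1-1D, and for 5 at 25 h with 1 higher. Differences passed for 6, all more negative in gdu1-1D and none with standard errors from the test statistic. The mitotic kinase CDKB2;1 had 4.42 FPKM in gdu1-1D and 7.77 FPKM in Col leaves, against 8.10 FPKM in Dex-GDU1 and 6.69 FPKM in 4c-S7 leaves at 25 h (difference -1.09 ± 0.22 (SE), adjusted p of 0.000112), and KN, the syntaxin of cell division, had 5.63 FPKM in gdu1-1D and 8.41 FPKM in Col leaves, against 9.05 FPKM in Dex-GDU1 and 8.69 FPKM in 4c-S7 leaves at 25 h (difference -0.64 ± 0.17 (SE), adjusted p of 0.00407).

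Senescence genes rose in both, 13 of 14 in gdu1-1D and 12 at 25 h, with medians of 1.59 and 0.92. The difference of SAG20 passed (0.43), and 11 of the 14 genes were at the smallest p in both, where few differences could pass. Of 12 dark and sugar starvation genes 9 were higher in gdu1-1D, against 8 higher and 1 lower at 25 h. DIN10, a raffinose synthase-like gene, had 43.3 FPKM in gdu1-1D and 28.0 FPKM in Col leaves, against 36.1 FPKM in Dex-GDU1 and 72.5 FPKM in 4c-S7 leaves at 25 h and changed in opposite directions (difference 1.63 ± 0.29 (SE), adjusted p of 6.91e-06), while DYL1 had 22.4 FPKM in gdu1-1D and 6.05 FPKM in Col leaves, against 17.8 FPKM in Dex-GDU1 and 14.9 FPKM in 4c-S7 leaves at 25 h (difference 1.63 ± 0.47 (SE), adjusted p of 0.0106). Sugar transporters had 8 of 12 higher in gdu1-1D, against 8 higher and 2 lower at 25 h, and 4 passing differences, all positive. SWEET12, a sucrose exporter of the phloem, had 30.1 FPKM in gdu1-1D and 12.4 FPKM in Col leaves, against 43.7 FPKM in Dex-GDU1 and 52.0 FPKM in 4c-S7 leaves at 25 h (difference 1.53 ± 0.32 (SE), adjusted p of 0.000156). The uptake carriers STP1, STP4 and SUC1 had differences of 0.72, 0.68 and 0.67.

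Aquaporins showed 6 higher and 4 lower of 17 in gdu1-1D, against 10 higher and 3 lower at 25 h. Differences passed for 6, of which 5 were more negative in gdu1-1D. TIP1;1, the main channel of the vacuolar membrane, had 289.8 FPKM in gdu1-1D and 340.2 FPKM in Col leaves, against 479.6 FPKM in Dex-GDU1 and 360.3 FPKM in 4c-S7 leaves at 25 h (difference -0.64 ± 0.13 (SE), adjusted p of 4.12e-05), and PIP2;7 was the exception with 339 FPKM in gdu1-1D and 325 FPKM in Col leaves, against 226 FPKM in Dex-GDU1 and 343 FPKM in 4c-S7 leaves at 25 h (difference 0.66 ± 0.17 (SE), adjusted p of 0.00243). Among expansins and xyloglucan enzymes 10 of 18 were lower and 4 higher in gdu1-1D, against 9 lower and 3 higher at 25 h. EXPA1 had 297 FPKM in gdu1-1D and 393 FPKM in Col leaves, against 90.5 FPKM in Dex-GDU1 and 304 FPKM in 4c-S7 leaves at 25 h (difference 1.35 ± 0.44 (SE), adjusted p of 0.0273), and EXPA4 went the other way (difference -1.40 ± 0.27 (SE), adjusted p of 1.99e-05). Auxin genes gave 7 higher and 2 lower of 17 in gdu1-1D, against 6 higher and 1 lower at 25 h, near the shares of all entries (44.7% and 46.3%), with 4 passing differences of which IAA29 was the largest. Gibberellin-regulated GASA1 had 232 FPKM in gdu1-1D and 141 FPKM in Col leaves, against 113 FPKM in Dex-GDU1 and 140.1 FPKM in 4c-S7 leaves at 25 h (difference 1.04 ± 0.19 (SE), adjusted p of 1.76e-05), 1 of 3 passing differences among 7 genes.

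Lipid transfer proteins split by family. LTP1, a lipid transfer protein of the epidermis, had 806 FPKM in gdu1-1D and 694 FPKM in Col leaves, against 1409 FPKM in Dex-GDU1 and 769 FPKM in 4c-S7 leaves at 25 h and rose more at 25 h (difference -0.66 ± 0.23 (SE), adjusted p of 0.0394). LTP3 had 62.3 FPKM in gdu1-1D and 9.63 FPKM in Col leaves, against 329.8 FPKM in Dex-GDU1 and 18.0 FPKM in 4c-S7 leaves at 25 h, and its difference did not pass (-1.50 ± 1.23 (SE), adjusted p of 0.492). AZI1, EARLI1 and AZI3 had opposite changes, AZI3 in an entry joined with a neighbour. Of the 8 tested 7 were higher in gdu1-1D, against 4 higher and 4 lower at 25 h. The medians were 2.59 and 0.31, whereas the median of the 8 differences was -0.27, with 4 positive. Of 12 flavonoid genes 4 were higher and 6 lower in gdu1-1D, against 5 higher and 4 lower at 25 h, and 7 differences passed. The late anthocyanin enzyme gene DFR had 3.73 FPKM in gdu1-1D and 0.818 FPKM in Col leaves, against 1.98 FPKM in Dex-GDU1 and 2.63 FPKM in 4c-S7 leaves at 25 h (difference 2.60 ± 0.56 (SE), adjusted p of 0.000246), and LDOX, the next enzyme, moved with it (difference 2.42 ± 0.51 (SE), adjusted p of 0.000164). The early genes TT5, F3H and FLS1 had the reverse signs, with differences of -1.103, -1.07 and -1.19.

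Of 16 clock genes 8 were higher and 3 lower in gdu1-1D, against 12 higher and 3 lower at 25 h. The hour at which gdu1-1D leaves were taken is not given in the sources used here. The morning gene CCA1 had 58.6 FPKM in gdu1-1D and 68.4 FPKM in Col leaves, against 56.3 FPKM in Dex-GDU1 and 37.7 FPKM in 4c-S7 leaves at 25 h and changed in opposite directions (difference -0.80 ± 0.16 (SE), adjusted p of 8.75e-05), as did LHY (difference -0.59 ± 0.11 (SE), adjusted p of 1.83e-05). ELF3, an evening component, had 7.51 FPKM in gdu1-1D and 5.15 FPKM in Col leaves, against 8.01 FPKM in Dex-GDU1 and 10.1 FPKM in 4c-S7 leaves at 25 h (difference 0.87 ± 0.16 (SE), adjusted p of 7.29e-06). Of 20 glucosinolate genes 15 were higher and 2 lower in gdu1-1D and 17 higher at 25 h, and the regulators MYB34 and MYB29 and the enzyme gene UGT74C1 had differences between -0.60 (MYB29) and -0.36 (UGT74C1). Of 9 mitochondrial stress genes 7 were higher and 2 lower in gdu1-1D, against 6 higher and 1 lower at 25 h; the alternative oxidase AOX1A had 31.6 FPKM in gdu1-1D and 21.0 FPKM in Col leaves, against 57.3 FPKM in Dex-GDU1 and 62.0 FPKM in 4c-S7 leaves at 25 h (difference 0.70 ± 0.16 (SE), adjusted p of 0.000389). No heat shock difference passed among 6 genes, of which 3 were higher in each comparison and 1 lower at 25 h. For floral transition 3 of 6 genes were higher and 1 lower in gdu1-1D, against 2 higher and 2 lower at 25 h, with FT as the largest difference.

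Of the root and flower markers, 1 each was tested in both comparisons, and both had a difference that passed. Of 6 guard cell markers 3 were lower in gdu1-1D and 4 at 25 h, with no passing difference. The root marker PYK10, a beta-glucosidase, had 4.74 FPKM in gdu1-1D and 0.260 FPKM in Col leaves, against 0.648 FPKM in Dex-GDU1 and 1.03 FPKM in 4c-S7 leaves at 25 h (difference 4.86 ± 1.09 (SE), adjusted p of 0.000453), while the other root markers were near 0. AG, a floral organ gene, had 0.272 FPKM in gdu1-1D and 1.295 FPKM in Col leaves, against 0.771 FPKM in Dex-GDU1 and 0.509 FPKM in 4c-S7 leaves at 25 h (difference -2.85 ± 0.61 (SE), adjusted p of 0.000205), with the other floral markers near 0. With standard errors from the test statistic neither passed (adjusted p of 0.0534 for PYK10 and 0.233 for AG). Their part in the results above was not tested.

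**Figure D4:**
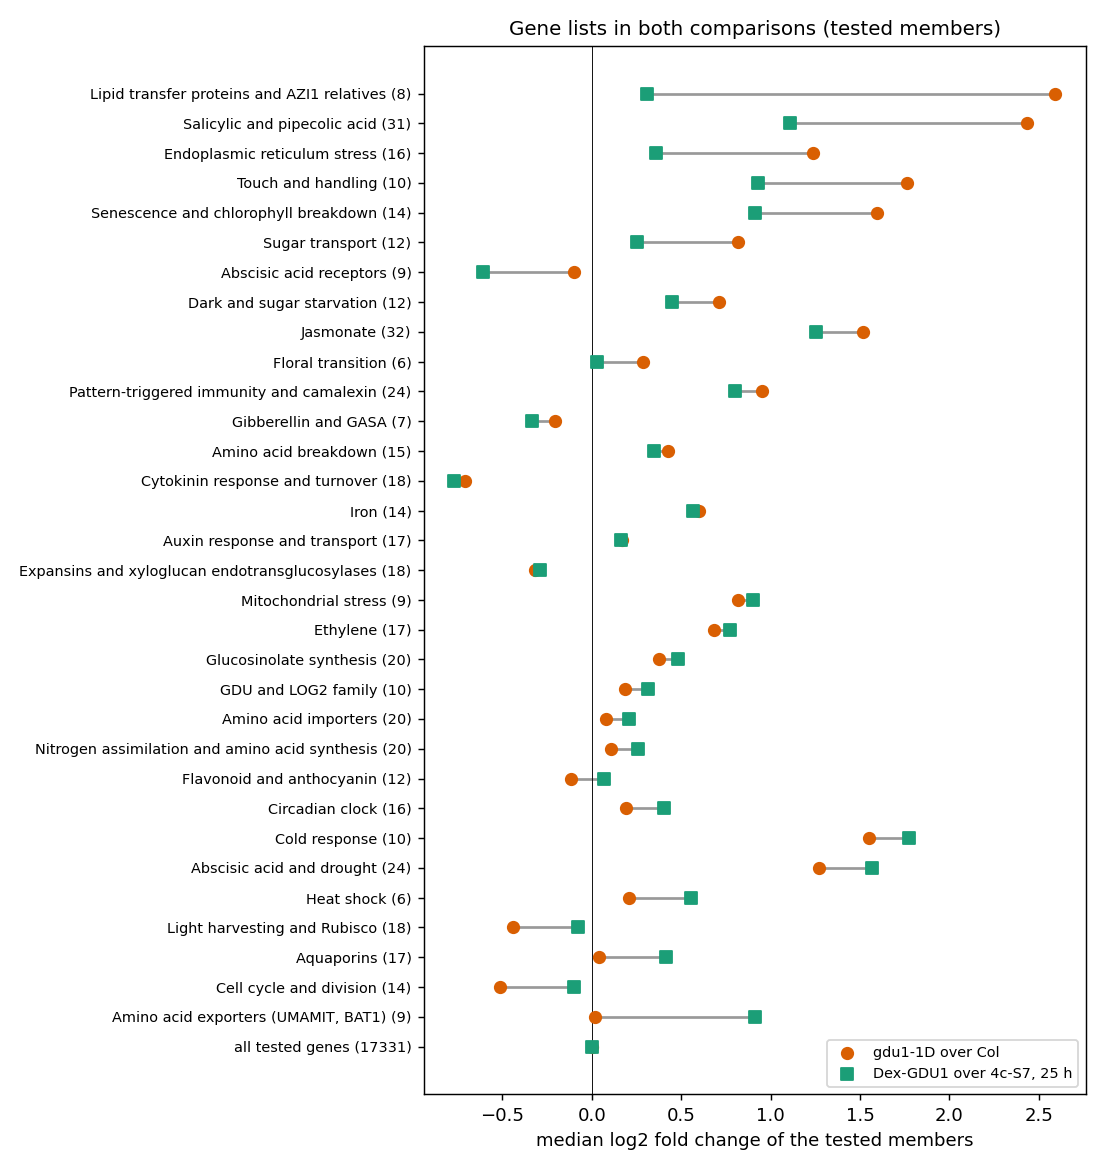
Median log2 fold change (x axis) of the tested members of each gene list with at least 5 tested members (number in brackets; cell type markers not drawn) for gdu1-1D over Col (circles) and Dex-GDU1 over 4c-S7 at 25 h (squares), ordered by the gap, with all tested genes last. Of the lists drawn, the gap is widest for lipid transfer proteins and salicylic acid genes on the gdu1-1D side and for amino acid exporters on the 25 h side (0.02 against 0.92). For the 8 lipid transfer proteins the median of the differences was -0.27, with 4 positive, so their gap of medians is not a shift of most members.

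The classes were then read in Dex-GDU1 leaves 7 h after the spray, in libraries that entered neither fold change (3 of Dex-GDU1 and 4 of 4c-S7). Of the 25 h genes that were higher at 25 h, 90 of 380 tested at 7 h were called higher there (23.7%) and 8 lower (2.11%), where 8.84% and 7.3% of all entries were. Of those lower at 25 h, 43 of 208 were called lower (20.7%) and 8 higher (3.85%). Lasting genes that were higher in gdu1-1D had 55 of 365 called higher at 7 h (15.1%) and 25 lower (6.85%). Lasting genes that were lower in gdu1-1D had 15 of 449 called lower (3.34%) and 49 higher (10.9%). By its rule the lasting class leaves out genes called at 25 h in these lines, whereas all entries include them. A low share of lasting genes at 7 h is therefore partly set by the rule. Among entries in no class, 2.59% were called lower and 4.37% higher at 7 h. Shared genes had 721 of 2606 higher (27.7%) and 738 of 2246 lower (32.9%) in their own direction. Opposite genes that were higher at 25 h had 47 of 217 called higher at 7 h (21.7%) and 6 lower (2.76%), while those lower at 25 h had 19 of 131 called lower (14.5%) and 17 higher (13.0%). With standard errors from the test statistic the shares in the class's own direction were 44.0% of 25 genes (higher at 25 h), 61.5% of 13 (lower at 25 h), 15.9% of 44 (lasting, higher in gdu1-1D) and 14.3% of 14 (lasting, lower in gdu1-1D), so that lasting lower genes then stood above the 7.3% of all entries. The 7 h and 25 h leaves come from the same pair of lines, so GDU1 induction and other differences between the lines cannot be told apart in these shares.

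Single genes differed between 7 h and 25 h. With the spray 5 h after dawn, the 7 h and 25 h leaves were also taken at different hours of the day. The clock gene CCA1 had 0.80 FPKM in 4c-S7 leaves at 7 h and 37.7 FPKM at 25 h, in separately normalised tables. Time since the spray and hour of day cannot be told apart. ENODL2 and the receptor PYL5 had values of 0.03 and -0.17 at 7 h and were not called, whereas DML1 was lower at 7 h (-0.92, q = 0.000725) and FLA9 too (-0.37). GRP9 and IAA29, opposite genes, were higher at 7 h by 2.08 and 0.79. The lasting genes PDF1.2, XTH24 and MC2 had 0.26, -0.10 and -0.14, none called.

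**Figure D5:**
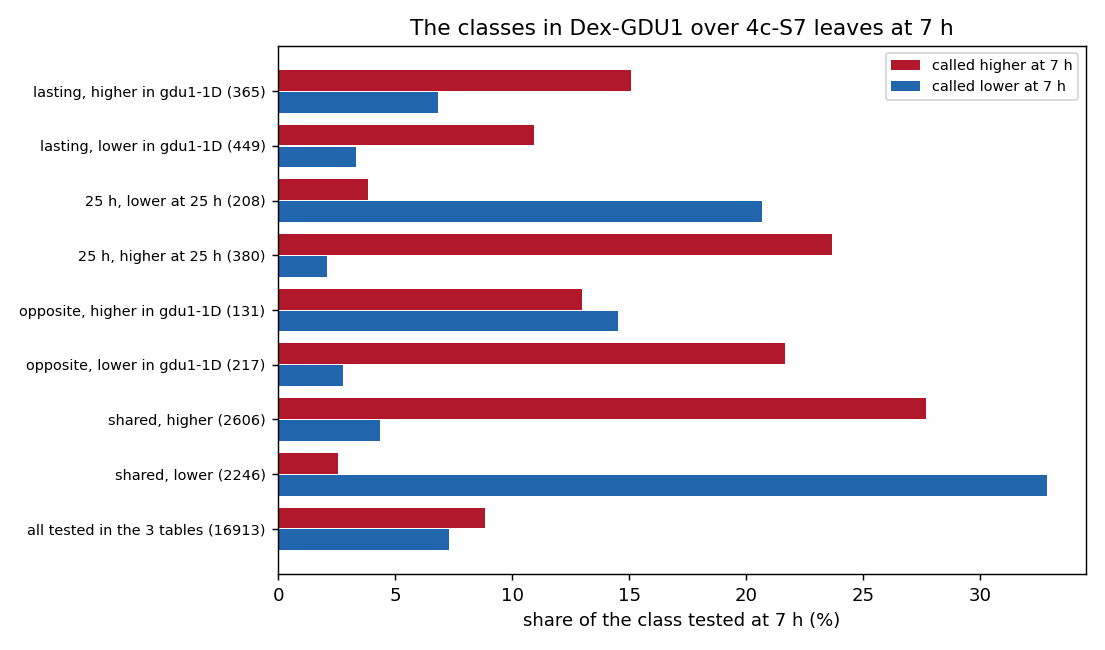
Share of each class (number tested at 7 h in brackets) called higher or lower in Dex-GDU1 over 4c-S7 leaves at 7 h (x axis, percent). The 25 h classes reach 23.7% and 20.7% in their own direction, and lasting genes lower in gdu1-1D reach 3.34%. Called lower were 7.3% of all entries and 2.59% of entries in no class, which are not drawn. With standard errors from the test statistic, lasting genes lower in gdu1-1D reach 14.3% of 14 genes.

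Promoters of the classes held the searched letters at shares near that of all tested genes, with some exceptions given as description. ABRE letters stood in 12.003% of the 15355 promoters of tested single genes. In the class higher at 25 h they stood in 16.0% of 381, and in shared higher genes in 16.1% of 2458. In the class lower at 25 h the share was 7.57% of 185. G-box letters followed, with 14.2% of genes higher at 25 h and 3.78% of genes lower at 25 h, against 9.07% of all tested genes. W-box letters stood in 57.4% of shared higher genes, in 52.6% of lasting genes higher in gdu1-1D and in 43.9% of lasting genes lower in gdu1-1D, against 50.4% of all tested genes. DRE letters stood in between 12.3% (lasting, higher in gdu1-1D) and 16.5% (higher at 25 h) of the lasting and 25 h classes, against 16.8% of all tested genes.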

How the data were processed

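RNA of whole leaves was sequenced as paired reads of 100 bases. Per the submitters' processing notes, TopHat2, Cufflinks and Cuffdiff were used with the TAIR10 genome; versions, strand setting and filters are not given in the sources used here. Per the file headers, the authors deposited 1 FPKM per gene and group, normalised separately in each table, with Cuffdiff's p-value, q-value and test statistic (a score). From the deposited FPKM a log2 ratio was taken for each pair of groups, with no pseudocount. Each standard error was the absolute log2 fold change over the normal quantile of the authors' p-value. The difference was divided by the root of the summed squared standard errors, referred to the normal distribution and adjusted by Benjamini-Hochberg over 17331 entries (scipy 1.17.1). No exact test over libraries was possible with 1 value per group, so each p rests on the authors' model across all genes. The procedure was tested on simulated data with planted differences and normal noise of the size of the recomputed standard errors. This simulation could not check whether those standard errors are right. Normal quantiles of the p-values were 2.17 (gdu1-1D) and 2.61 (25 h) times the deposited test statistics (medians), hence the alternative standard error.

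Names came from the tables and the RefSeq annotation TAIR10.1 (31873 entries matched). For 647 locus tags with several entries, the entry with the highest mean FPKM stands for the gene; genes that overlap on opposite strands are uncertain. Of the 550 genes in 36 lists, 548 had an entry and 488 were tested. The genes named in the text are the 12 with the largest difference per direction among lasting and 25 h genes, 10 among opposite and 8 among shared genes (FPKM of at least 5 in a group), all GDU and LOG2 members, and up to 4 passing members of each list; other list members were named after their values were seen. The classes, lists and rules were chosen with earlier results of these data known. ACTCAT, ERSE-II and UPRE were added to the motifs after seeing the data.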

Additional observations from a re-analysis of the deposited data

Results flagged for a closer look

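Each result here is a difference between the change in gdu1-1D and the change at 25 h that passed its test. For opposite genes that test adds little, since every gene called with opposite signs passed it. Such differences numbered 2018 of 17331 entries, with 828 lasting genes, 614 genes of the 25 h class and 363 opposite genes. Among the opposite genes with a more positive value in gdu1-1D, the differences on the log2 scale were 3.44 for AZI1, 3.298 for XTR6, 2.94 for ERD5, 2.86 for EARLI1, 2.53 for FT, 1.94 for OPT1, 1.90 for AGP7, 1.87 for TRE1, 1.87 for ACHT5 and 1.74 for SMT3. Among those with a more negative value they were -4.11 for GRP9, -2.43 for XTH31, -2.03 for IAA29, -1.72 for ProT3, -1.67 for ADS1, -1.56 for BGLU47, -1.45 for TRY, -1.45 for UMAMIT17, -1.40 for EXPA4 and -1.40 for GBSS1. With standard errors from the test statistic GRP9, ProT3, ADS1 and BGLU47 no longer passed. Line, spray and duration differ together between the comparisons, and what part each has in these differences was not tested.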

How the results depend on the processing

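The 2018 differences (875 more positive and 1143 more negative in gdu1-1D) were within 1.5 times of the main count with an FPKM of at least 1 or at least 5 in a group, a pseudocount of 1 FPKM, centring on the median gene, joined entries left out or 1 entry per locus tag. Standard errors from the test statistic gave 480 (343 more positive, 137 more negative), so the balance of directions turned. An adjusted p below 0.01 gave 922 (350 and 572), with 56 instead of 108 list members, and an absolute difference of at least 1 gave 463 (285 and 178), with 48 list members. Standard errors 1.5 times larger and a t distribution with 8 degrees of freedom gave 0 in each direction and 0 list members, with 1649 and 3126 entries at an unadjusted p below 0.05, against 4284 in the test as reported; the authors' smallest p limits the ratio of a difference to its standard error to 5.74. With standard errors from the test statistic the classes held 58 lasting, 39 25 h and 110 opposite genes. At q below 0.01 opposite genes numbered 199. With at least 2-fold changes required, calls were 1164 and 147 in gdu1-1D and 729 and 144 at 25 h (higher and lower), with 492 higher in both, 23 lower in both and 8 opposite. The 7 h shares under standard errors from the test statistic were 14.3% (lasting lower, called lower), 61.5% (25 h lower) and 44.0% (25 h higher). A pseudocount of 1 FPKM reversed the difference of HAI1 to -0.55 and of LEA4-5 to -0.999, neither of which passed. No paired analysis was possible because the tables hold 1 value per group, and for the same reason no library could be left out. Depth is unknown, so genes near 0 FPKM carry the least certain folds.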
